A study of Sus scrofa with 2 samples.

Results

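A set of 10 genes tied to fat cells was examined in the stria vascularis (SV) of pigs with a mutation of MITF, namely ADIRF, PPARG, FABP4, PLIN1, ADIPOQ, LEP, LPL, CEBPA, UCP2 and CIDEC. Members were found by the gene symbol of the deposited table and, where it was blank or differed, by the gene description, the RefSeq accession it carries or the Ensembl pig name. Of the 10 genes, 7 had a row among the 27622 features, and FABP4, ADIPOQ and LPL matched no row by these names and were not analysed here. The members were chosen by the RPKM of ADIRF, which was far higher in the r/r library, together with known genes of fat cells, so that the values of all members are a description of the same contrast and are given without a test. The question was whether the higher ADIRF level came with a wider set of fat cell genes.

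RNA was sequenced from the dissected lateral wall of the cochlea, which carries the SV, of Rongchang pigs, with 1 library for the heterozygous genotype MITF R/r and 1 for the homozygous genotype MITF r/r. Both genotypes carry the r allele, and no R/R library was analysed here. The r/r pigs are albino and deaf, and the r allele silences the melanocyte promoter of MITF. The labels give the age as postnatal day 1, whereas the paper places the libraries at embryonic day 85, and the stage was not settled from the data. Expression is given as RPKM, the reads of a gene scaled to its length and to the mapped reads of the library, which can be compared between genes as a level per length. The whole reads behind the RPKM values were worked out, with library totals of 15829244 reads for R/r and 14258672 reads for r/r. One read on 1 kb of transcript is worth 0.0632 RPKM in R/r and 0.0701 RPKM in r/r. Differences are log2 ratios of RPKM, r/r over R/r. Where a range follows in brackets, it is an exact 95% interval (Clopper-Pearson) from the reads, which covers counting error only. With 1 library per genotype there is no replicate check, and the differences between samples, dissections and genotypes cannot be told apart.

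Fat cells form when PPARG and CEBPA, transcription factors that sustain each other, switch on the genes for fat storage. A mature fat cell coats its lipid droplet with PLIN1 and CIDEC, takes up fatty acids with the help of LPL and FABP4, and secretes the hormones ADIPOQ and LEP. ADIRF (adipogenesis regulatory factor) is a small protein first described in adipose tissue that promotes fat cell formation in culture, and it is also made in tissues other than fat. UCP2 is a carrier of the inner mitochondrial membrane that is expressed in many tissues, including cells of the immune system.

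The libraries carried the markers of the tissue, with KCNE1, a potassium channel subunit of marginal cells, at 278 RPKM in R/r and 248 RPKM in r/r. COCH, a matrix protein of the fibrocytes beneath the SV, had 6826 and 4914 RPKM. The main feature of MITF itself (ENSSSCG00000011513) had 51.7 RPKM in R/r and 37.8 RPKM in r/r, a log2 ratio of -0.45 (-0.75 to -0.16). Gene-level values do not separate the melanocyte isoform from the others. Of 8 melanocyte genes, 6 (DCT, TYR, PMEL, SLC45A2, TRPM1 and RAB38) were at least 2-fold lower in r/r, with log2 ratios from -10.64 to -4.92, and MLANA had 12.0 RPKM in R/r and was listed at 0 in r/r. TYRP1, the remaining gene, was barely detected, with 0.0340 RPKM in R/r and 0.0377 RPKM in r/r, from 1 read in each.

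ADIRF (ENSSSCG00000029058) had 0.453 RPKM in the R/r library and 93.6 RPKM in the r/r library. The smallest whole reads that give these values are 3 in R/r and 558 in r/r, on a model of 418 bases. The gene was therefore close to the limit of detection in R/r and, in r/r, stood above 95.4% of the features with any reads. The log2 ratio was 7.69 (6.14 to 9.97), a fold of 206 with an interval from 70.3 to 1004. Its width comes from the few R/r reads. ADIRF passed the minimum of 1 RPKM through the r/r library alone, and 0 of the 16331 genes above 0 in both libraries and at that minimum had a higher ratio.

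UCP2 (ENSSSCG00000014833) had 9.24 RPKM in R/r and 33.6 RPKM in r/r, from 242 and 793 reads. The log2 ratio was 1.86 (1.65 to 2.08), or 3.64-fold, and 67 of the 16331 genes had a higher ratio. Unlike ADIRF, UCP2 was well expressed in both libraries.

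**Figure D1:**
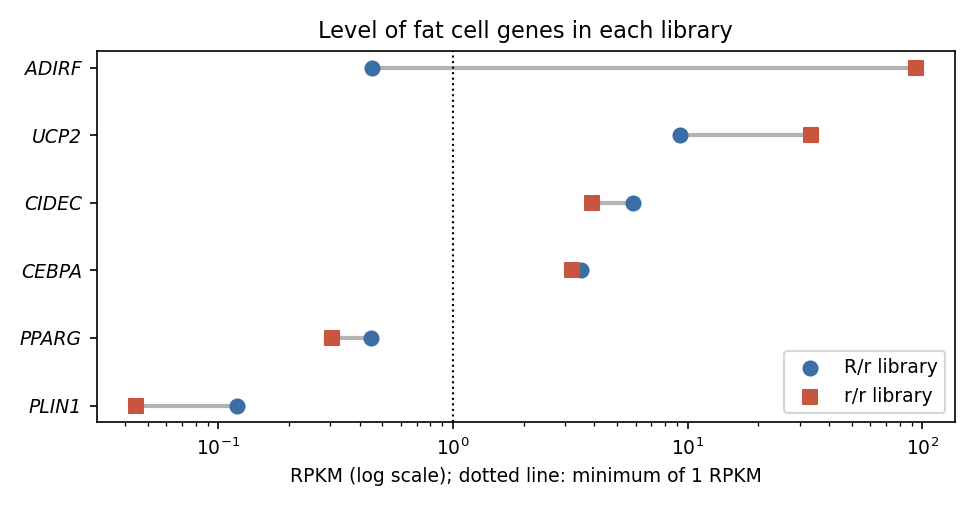
RPKM (log scale) of the 6 members with reads in each library, 1 point per library, with the minimum of 1 RPKM as a dotted line. ADIRF and UCP2 were higher in r/r, and the counting intervals of the ratios of CIDEC, CEBPA, PPARG and PLIN1 reach equal RPKM; LEP, listed at 0 in both libraries, is not drawn.

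Of the transcription factors of fat cell formation, CEBPA (ENSSSCG00000002866) had 3.50 RPKM in R/r and 3.23 RPKM in r/r, from 59 and 49 reads, with a log2 ratio of -0.12 (-0.69 to 0.45). PPARG (ENSSSCG00000011579) had 0.447 RPKM and 0.305 RPKM, from 13 and 8 reads, with a log2 ratio of -0.55 (-2.03 to 0.83). Neither interval left out equal RPKM. The upper ends of the intervals correspond to r/r levels 1.37 times the R/r level for CEBPA and 1.78 times for PPARG, both below the 3.64-fold of UCP2.

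Of the lipid droplet proteins among the members, CIDEC (ENSSSCG00000011557), which enlarges lipid droplets by fusing them, had 5.86 RPKM in R/r and 3.90 RPKM in r/r, from 60 and 36 reads, a log2 ratio of -0.59 (-1.22 to 0.03). PLIN1 (ENSSSCG00000001844), the coat protein that guards stored fat in mature fat cells, had 0.120 RPKM and 0.0444 RPKM, from 3 reads and 1 read, which leaves its log2 ratio of -1.43 open from -7.15 to 2.20. The hormone LEP was listed at 0 in both libraries. PLIN1 and LEP were thus at or near the limit of detection in both libraries, whereas CIDEC was detected in both with an interval that reached equal RPKM.

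**Figure D2:**
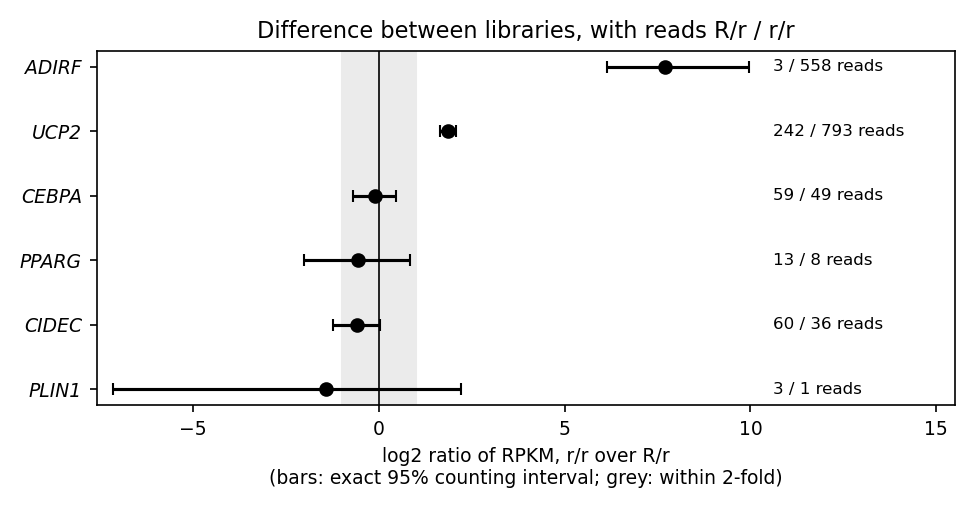
Log2 ratio of RPKM, r/r over R/r, of the 6 members with reads in both libraries, with exact 95% counting intervals as bars and the reads of each library (R/r / r/r) at the right. The intervals of ADIRF and UCP2 lie wholly above the grey 2-fold band, and those of the other 4 genes reach 0.

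In all, 4 of the 10 members were above 0 in both libraries with at least 1 RPKM in at least one, and 2 of these, ADIRF and UCP2, were at least 2-fold higher in r/r. None of the 4 was at least 2-fold lower. The counting intervals of the same 2 genes lay wholly beyond 2-fold higher, and 0 members had an interval wholly beyond 2-fold lower. Over all genes compared, 1.78% were at least 2-fold higher in r/r and 2.20% at least 2-fold lower, and 0.294% had an interval wholly past 2-fold higher and 0.349% one wholly past 2-fold lower. The members were chosen with this contrast known, and nothing is read from their share against these values.

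A further 9 lists of genes of fat cell biology were examined beyond the members. They cover 81 genes, of which 72 had a row and 52 were above 0 in both libraries and past the minimum. Of these 52 genes, 1 (1.92%), UCP2, was at least 2-fold higher in r/r, and 0 were at least 2-fold lower, against 3.99% of all genes compared that were 2-fold apart in either direction. The median log2 ratio over the 52 genes was -0.08, beside -0.02 over all genes compared, with 20 genes higher and 32 lower. With the members left out, 49 genes remained, the median was again -0.08, and the log2 ratios ran from -0.64 to 0.79. The counting interval lay wholly above equal RPKM in 8 of the 52 genes (15.4%) and wholly below in 12 (23.1%), where all genes compared gave 11.2% and 14.4%. Reads in R/r and r/r together had a median of 1033 for the listed genes and 442 for all genes, and an interval narrows as reads increase.

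Of the 14 adipogenic transcription factors, 8 were compared, of which 0 were 2-fold apart, and the median log2 ratio was -0.07. The others could not be compared. SREBF1 and RXRA matched no row, CEBPD was listed at 0 in both libraries and CEBPB at 0 in R/r. PPARG and EBF2 were below the minimum, so the list covers the factors of fat cell formation in part only. KLF5, a factor that acts early in fat cell formation, had the highest level, with 71.0 RPKM in R/r and 48.6 RPKM in r/r. Its log2 ratio was -0.55 (-0.72 to -0.38). EBF1, which works upstream of PPARG, had 41.9 and 46.0 RPKM, and PPARGC1A, a coactivator of mitochondrial genes, had 12.4 and 13.3 RPKM. Of the 6 adipokines, 2 could be compared, with a median of 0.07 that became -0.13 with no minimum. CFD (adipsin, a complement protease secreted by fat cells) had 54.1 and 65.1 RPKM, a log2 ratio of 0.27 (0.06 to 0.47). LEP aside, RETN was listed at 0 in R/r and had 0.165 RPKM in r/r, and RBP4, the retinol carrier, had 6 reads and 1 read.

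Of the 11 lipid droplet genes, 5 were below the minimum, 1 was listed at 0 in both libraries and 5 were compared, 2 of them higher and 3 lower, with a median log2 ratio of -0.06. BSCL2 (seipin, needed to form droplets) was the most abundant at 47.8 and 45.7 RPKM. CIDEA, a relative of CIDEC, stayed below the minimum with 2 reads in R/r and 5 in r/r. Of the 10 uptake and binding genes 7 were compared, with a median of -0.11. LMF1, which matures lipoprotein lipase, had 48.4 and 44.7 RPKM, and the fatty acid receptor CD36 had 14.3 and 9.16 RPKM, a log2 ratio of -0.64 (-0.92 to -0.36). For the 11 genes of fatty acid and triglyceride synthesis compared the median was -0.05, and it was 0.05 where features that share a symbol were summed. SCD, the desaturase that makes monounsaturated fatty acids, had 136 and 123 RPKM, and FASN, the fatty acid synthase, had 39.7 and 36.8 RPKM. The highest ratio in this list was that of ELOVL6, an elongase, counted from 21 reads in R/r and 30 in r/r, at 0.67 (-0.19 to 1.54). The lowest was that of GPD1, with 63.4 RPKM in R/r and 44.8 RPKM in r/r, at -0.50 (-0.63 to -0.38). In this list 1 counting interval lay wholly above equal RPKM and 4 wholly below, where all genes compared gave 11.2% and 14.4%. Intervals narrow as reads increase, and FASN, with 2751 reads in R/r and 2300 in r/r, was among the 4 at only -0.11 (-0.19 to -0.03). The 6 lipolysis genes compared had a median of -0.13; PNPLA2, the lipase that opens triglyceride breakdown, had 41.9 and 46.9 RPKM. The 4 insulin response genes compared had a median of 0.04, with the kinase AKT2 at 104 and 101 RPKM. The 6 genes of fat cell precursors compared had a median of -0.12, with the receptor PDGFRB at 71.3 and 65.9 RPKM.

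The uncoupling protein family was the list with the highest median, 0.79, from 3 of its 5 genes, which include UCP2 itself. UCP1 matched no row and was not analysed. SLC25A14, a brain-enriched relative, had 2.94 RPKM in R/r and 5.10 RPKM in r/r, from 41 and 64 reads, a log2 ratio of 0.79 (0.21 to 1.40). SLC25A30 had 22.3 and 19.5 RPKM, a log2 ratio of -0.19 (-0.34 to -0.05), and UCP3, the muscle form, had 6 and 9 reads. Family members thus differed among themselves, in direction as well as size.

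**Figure D3:**
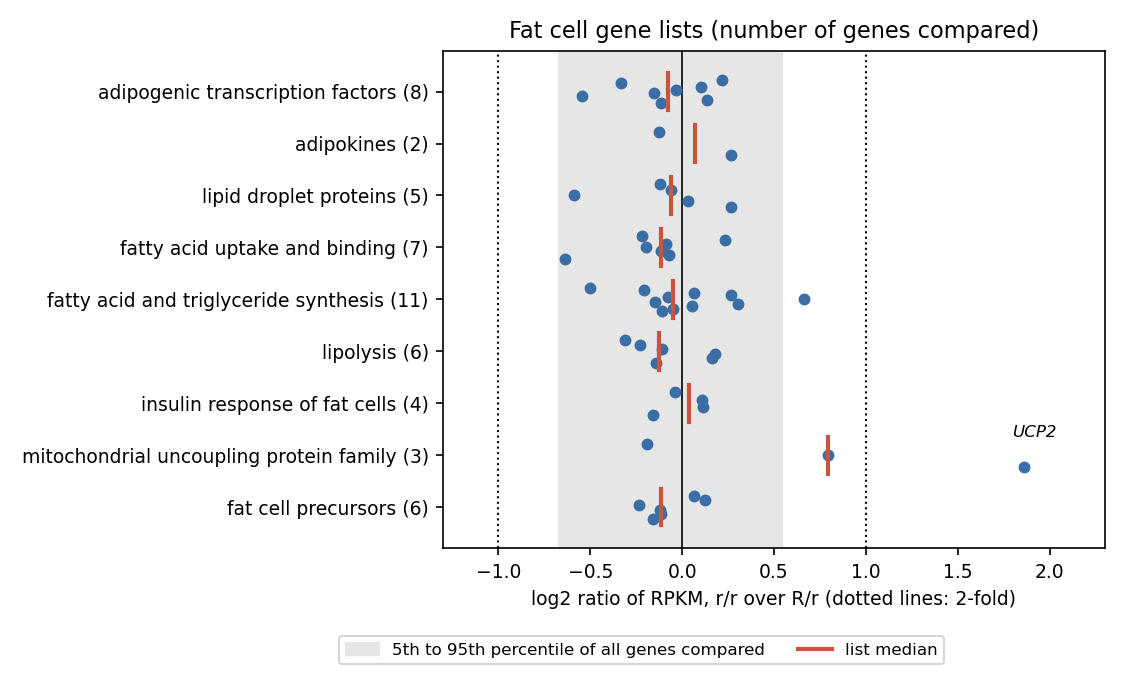
Log2 ratio of RPKM, r/r over R/r, of each gene compared in 9 lists of fat cell biology (1 point per gene, number of genes in brackets), with the list median as a red bar, the 5th to 95th percentile of all genes compared in grey and 2-fold as dotted lines. UCP2, with a log2 ratio of 1.86, is the 1 point past 2-fold.

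Genes next to ADIRF and UCP2 were read from the gene order of a later RefSeq assembly (Sscrofa11.1), 3 named genes with a row on each side. Of the 12 neighbours, 9 passed the minimum and 1 of these was at least 2-fold apart (3.99% over all genes compared). This was DNAJB13, a cochaperone of cilia and sperm tails, which lies directly next to UCP2. It had 0.381 RPKM in R/r and 2.17 RPKM in r/r, from 7 and 36 reads, a log2 ratio of 2.51 (1.33 to 3.93), and it passed the minimum through r/r alone. Its level was 4.12% of that of UCP2 in R/r and 6.47% in r/r. Whether reads were counted by strand is not given in the sources used here, and a contribution of UCP2 reads to DNAJB13 was not tested. On the other side of UCP2, UCP3 was below the minimum, and C2CD3 had 5.72 and 5.41 RPKM. The log2 ratios of PAAF1, MRPL48 and PPME1, the remaining neighbours of UCP2, were 0.16, 0.11 and 0.04. Around ADIRF, SNCG (gamma-synuclein) had 10.8 and 8.30 RPKM, a log2 ratio of -0.38 (-0.78 to 0.01), and GLUD1, the mitochondrial glutamate dehydrogenase, had 123 and 120 RPKM. BMPR1A, a BMP receptor, had 61.5 and 63.3 RPKM, and FAM35A had 3.09 and 3.17 RPKM. MMRN2 and GPRIN2 stayed below the minimum, with 39 and 28 reads and with 9 and 14 reads. The high ratio of ADIRF was thus not shared by its 4 neighbours past the minimum.

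**Figure D4:**
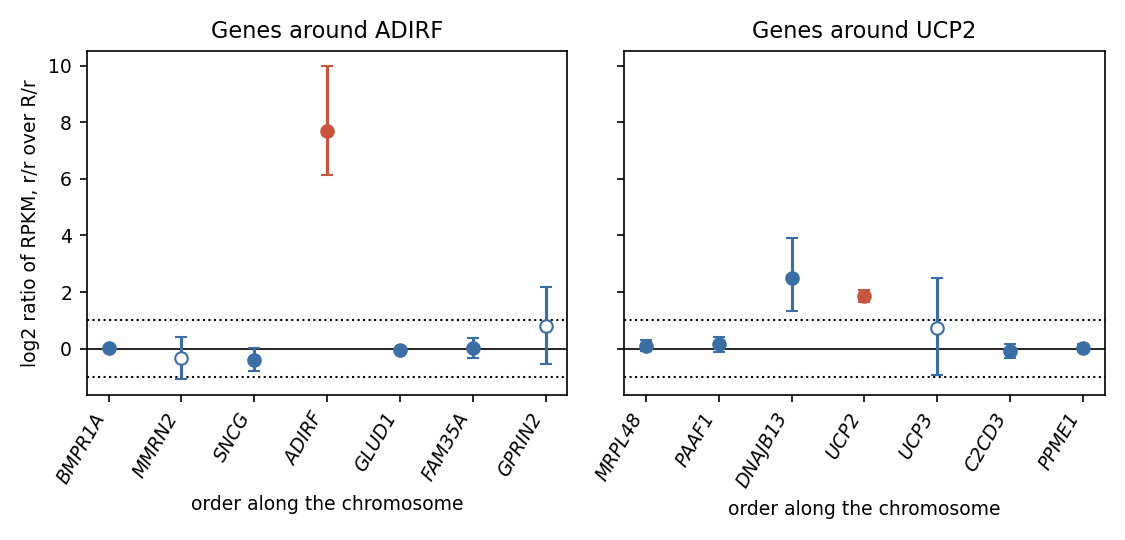
Log2 ratio of RPKM, r/r over R/r, with exact 95% counting intervals as bars, of the 3 named genes on each side of ADIRF (left) and UCP2 (right) in chromosome order. Red points are ADIRF and UCP2, open points are genes below 1 RPKM in both libraries and dotted lines mark 2-fold; DNAJB13, at 2.51, is the neighbour above the line with its whole interval.

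Markers of the cell types that could hold these transcripts were compared by their summed RPKM, keeping in mind that in a bulk sample fewer cells of a type and less RNA per cell cannot be told apart. The adipocyte list summed to 13.2 RPKM in R/r and 10.5 RPKM in r/r. Of its 8 genes, 6 had a row and 3 were compared. All 3 were lower in r/r, with 0 of them 2-fold apart, and the counting intervals of all 3 reached equal RPKM. Smooth muscle cells and pericytes, which can express ADIRF, had a marker sum of 114 and 119 RPKM. In this list 8 of 8 genes had a row, and 0 of the 4 compared were 2-fold apart. RGS5, a pericyte gene, had 84.9 RPKM in R/r and a log2 ratio of 0.00 (-0.14 to 0.14), whereas TAGLN, a smooth muscle gene, had 11.7 and 15.9 RPKM, a log2 ratio of 0.44 (0.18 to 0.70). The contractile proteins MYH11 and CNN1 stayed below 1 RPKM in both libraries.

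Macrophages, which express UCP2, had a marker sum of 58.3 RPKM in R/r and 54.3 RPKM in r/r, with 0 of 7 genes compared 2-fold apart, 1 higher and 6 lower in r/r. AIF1 had the highest level at 18.2 and 19.5 RPKM, and CSF1R had 8.02 and 5.81 RPKM, a log2 ratio of -0.47 (-0.70 to -0.24). CD163, a defining macrophage gene, had 2 reads and 1 read. The endothelial sum was 268 and 258 RPKM, with 0 of 7 genes 2-fold apart, 2 higher and 5 lower. CLDN5 had the highest level at 71.3 and 76.3 RPKM, and VWF had 10.7 and 6.49 RPKM, a log2 ratio of -0.73 (-1.08 to -0.38). The skeletal muscle sum was 20.1 and 15.7 RPKM; MYH8, a perinatal myosin, had 208 reads in R/r and 28 reads in r/r, a log2 ratio of -2.74 (-3.37 to -2.17), and MYH3 had 12.0 and 11.2 RPKM. The lateral wall list summed to 9296 and 6832 RPKM, mostly from COCH (6826 and 4914 RPKM), and the melanocyte list to 276 and 3.07 RPKM. The melanocyte list leaves out KIT and the S100 genes, which the paper gives as markers still expressed in r/r. The paper also describes intermediate cells still present in r/r at the embryo stage. The melanocyte sum is not a measure of the number of cells. Of the 10 lateral wall genes 7 were compared, 1 higher and 6 lower in r/r. KCNQ1, KCNJ10 and OTOS matched no row by the names used. The paper lists KIR1.2, another name for KCNJ10, at a lower level in r/r. That entry was not looked up here and is in neither the sum nor the counts. Of the 7 compared, 0 were 2-fold apart. The counting interval lay wholly below equal RPKM in 5 and wholly above in 1, where all genes compared gave 14.4% and 11.2%. Intervals narrow as reads increase, and COCH had 405090 reads in R/r and 262675 in r/r, so these counts are not comparable with those shares. The lowest log2 ratio of the 7 was that of ATP1B2, with 915 and 522 RPKM, at -0.81 (-0.85 to -0.77). The part of these cell types in the levels of ADIRF and UCP2 was not tested.

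**Figure D5:**
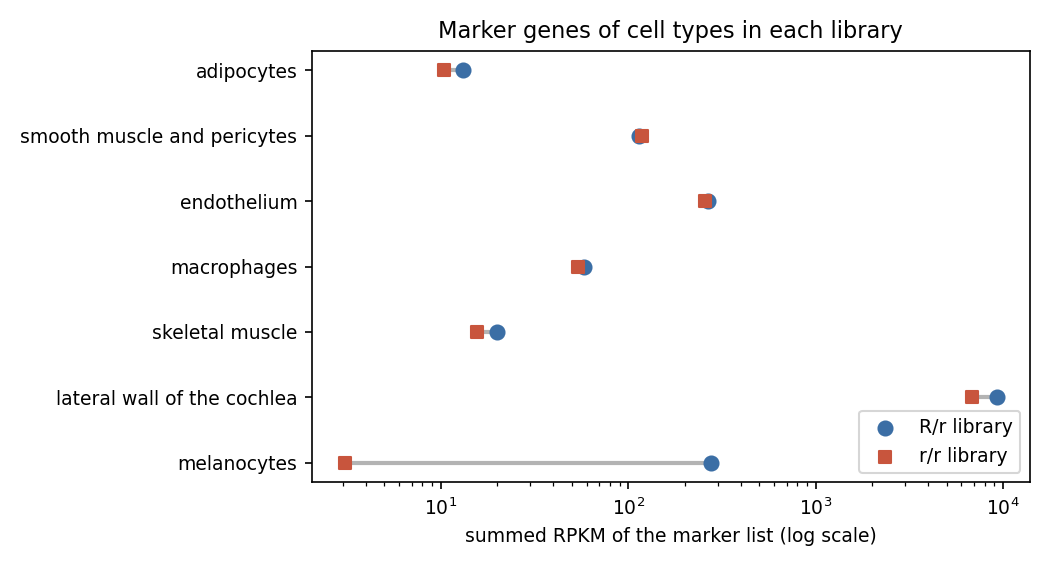
Summed RPKM (log scale) of 7 lists of cell type markers, 1 point per library. The adipocyte sum was 13.2 in R/r and 10.5 in r/r, and the melanocyte sums lay furthest apart, at 276 and 3.07.

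The genes nearest to ADIRF and UCP2 in log2 ratio were sought among 8605 genes above 0 in both libraries with at least 10 RPKM in at least one, over the 2 libraries. Nearest to ADIRF was CCK, a peptide hormone of gut and brain, with 1.03 RPKM in R/r and 23.8 RPKM in r/r, yet its log2 ratio of 4.53 lay 3.16 below that of ADIRF. Novel01290, a transcribed region outside the annotation, followed at 4.22 and TMP-CH242-74M17.6 at 3.33. UCP2 had closer company. PALMD, the membrane-associated protein palmdelphin, had 6.64 and 24.2 RPKM and a log2 ratio of 1.87, and ENSSSCG00000006711, which has no symbol in the deposited table and is named NBPF6 in the paper, had 5.20 and 19.0 RPKM and a log2 ratio of 1.87. SLA-1, an MHC class I gene that may share reads with close relatives, had a log2 ratio of 1.83. A pattern over 2 libraries is a single ratio, and genes that share one need share nothing else.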

How the data were processed

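Lateral wall RNA in 1 library for MITF R/r and 1 for MITF r/r (the number of pigs in each is not given in the sources used here) was sequenced by the authors as paired reads, filtered and aligned to Sscrofa10.2 with TopHat2 (2.0.7), per the labels and the paper. The authors deposited RPKM values per feature; the counting program, annotation and strand setting are not given in the sources used here. A further 2 columns without headings hold the authors' differences and ratios for other genes and were not used.

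The commonest ratio between low RPKM values of the libraries, 1.11, was taken as that of equal reads. Reads were the smallest whole numbers that gave both values and, where possible, a whole length (within 0.02 bases), and the true reads may be a multiple of them. Library totals were those that made lengths whole, which they did for 89.8% of 3000 genes. On simulated libraries of 18903 genes, 84.1% had exact reads, 96.5% of intervals held the true ratio, and 100% of 200 changed genes were called in this comparison. The changed genes were given differences well beyond 2-fold and had at least 100 reads in R/r and r/r together. That nearly all would be called was thus close to fixed in advance. Only counting error was simulated. The share called therefore does not cover genes with few reads or with differences near 2-fold. None of these shares covers variation between samples. Ratios used no pseudocount, a minimum of 1 RPKM in at least one library and a threshold of 2-fold, after the paper. Where features shared a symbol, the one with the highest RPKM was used.

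The members and lists were chosen with earlier results of these data known. Genes named are the members, the highest gene of each list, list genes at least 2-fold apart whose interval leaves out equal RPKM, neighbours, and the 3 nearest in ratio. EBF1, PPARGC1A, RETN, RBP4, CIDEA, CD36, FASN, ELOVL6, SLC25A14, SLC25A30, TAGLN, MYH11, CNN1, CD163, CSF1R, VWF and KCNE1 were named after their values were seen. The same holds for TYRP1, CEBPB, CEBPD, EBF2, SREBF1, RXRA, GPD1, UCP1, ATP1B2, KCNQ1, KCNJ10 and OTOS. KIR1.2, KIT and the S100 genes were named later, from the paper. Intervals were computed with scipy 1.17.1, tables with pandas 2.3.3 and numpy 2.4.6, and plots with matplotlib 3.10.9, all under Python 3.11.15. Alternatives were another minimum or none, pseudocounts of 0.1 and 1 RPKM, scaling by the median ratio or to TPM, summed features and 1.5-fold.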

Additional observations from a re-analysis of the deposited data

How the results depend on the processing

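No paired analysis was possible because R/r and r/r had 1 library each, and for the same reason no library could be left out. The ADIRF log2 ratio of 7.69 became 6.02 with a pseudocount of 1 RPKM, which by construction lifts the low R/r value, and ran from 7.40 to 7.71 otherwise. The UCP2 log2 ratio ran from 1.76 to 1.88. The number of members at least 2-fold higher was 2 under each alternative; the number lower, 0, became 1 with no minimum (PLIN1) and 1 at 1.5-fold (CIDEC). For the fat cell lists the number higher, 1, became 2 with no minimum and 2 scaled to TPM (UCP2 and CIDEA, which then passes the minimum) and 3 at 1.5-fold (UCP2, SLC25A14 and ELOVL6), and the number lower, 0, became 2 with no minimum (RBP4 and PLIN1) and 2 at 1.5-fold (CIDEC and CD36). The median over all lists ran from -0.12 to -0.06. Medians of some lists changed sign: adipokines from 0.07 to -0.13 with no minimum, fatty acid and triglyceride synthesis from -0.05 to 0.05 with summed features, adipogenic transcription factors from -0.07 to 0.04 at a minimum of 5 RPKM, lipolysis from -0.13 to 0.02 with no minimum and 0.03 at 5 RPKM, and insulin response from 0.04 to -0.01 with summed features and -0.04 at 5 RPKM. Of 136 values under alternatives, 126 stayed within the counting interval (for a list, the median of its genes' bounds) or within 1.5 times the count, and 0 gene-level calls of 2-fold reversed. A reversal meant a change of sign. The alternatives could not give one for a member 2-fold apart, so this 0 carries no weight. Across all genes, the shift removed was -0.02 (log2) by median scaling and 0.04 by TPM. Few reads limit PPARG and PLIN1, whose intervals hold differences in either direction.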
